A study of Bos taurus with 43 samples.

Results

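The 10 genes described here were those with the strongest statistical support for a higher level in the second of 2 synchronization rounds of beef cows. They were selected on the block contrast of these same libraries: of 15206 genes tested, out of 27570 in the tables, 53 were called higher in block 2, and the 10 genes are the ones with the smallest p among those 53. The label therefore matches the data by construction, and every difference between blocks given below for these genes is a description and supports nothing. The number of genes called higher moved with single cows: fits that each omitted 1 cow gave between 8 (without block 2 replicate 7) and 317 (without block 1 replicate 8). Tests were made of progesterone, library complexity and the relation of the genes to one another among cows of the same block. The choice of the genes bears on these tests too, as stated with them. The pregnancy label was a covariate of the fit that selected the genes, so the outcome values are also a description.

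Uterine luminal cells were brushed from 43 multiparous Angus x Brahman cows on day 4 after the last GnRH dose, and each cow gave 1 poly-A RNA library. All cows had carried an intravaginal progesterone device, had received GnRH, a prostaglandin F2alpha analogue and a second GnRH dose, and had shown estrus, and each received 1 in vitro-produced embryo on day 7. Block 2 held 22 cows, 14 that were pregnant around day 30 and 8 that were not. Block 1 held 21 cows, 11 pregnant and 10 nonpregnant. The labels do not say how the rounds differed beyond their number, so season, handling, library preparation and other things shared by the cows of a round cannot be told apart from the round itself. Total counts per library ran between 11159501 and 23572549, with a median of 15819963 in block 2 and 15056428 in block 1. Libraries of block 2 had 18273 ± 335 genes with at least 1 count, against 18010 ± 531 in block 1 (SD, n = 22 and 21). In 7 libraries, 5 of block 2 and 2 of block 1, the 10 most abundant genes took over 8% of all counts.

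The luminal epithelium lines the uterine cavity and is the first maternal tissue an embryo meets. In the days after ovulation the new corpus luteum begins to release progesterone (P4), the steroid that turns the endometrium from an estrogen-driven to a secretory state, and the timing of that rise is known to alter endometrial gene expression in cattle. A brush also gathers other cells of the lumen, such as leukocytes and ciliated or glandular cells. The count tables carry Ensembl identifiers without gene names, and 0 of the 10 genes could be paired with a symbol in the sources used here. The genes are therefore given by identifier, without function, position or sequence, and the cell type of the samples could not be checked against markers. In such bulk samples, fewer cells of a type and less RNA per cell cannot be told apart.

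Levels are given in CPM (each gene's counts relative to the size of its library), with library sizes scaled by edgeR's TMM factors. CPM values are not divided by gene length, so levels are compared between cows and not between genes. ENSBTAG00000008182 had the widest spread among the 10. Its lowest, median and highest values were 1.96, 8.26 and 239 CPM in block 2, against 0.513, 2.13 and 8.31 CPM in block 1. In block 2, 9 of 22 cows stood above 10 CPM and 11 stood above the highest cow of block 1, while 0 of 21 cows of block 1 passed 10 CPM. The top of the range belonged to few cows: block 2 replicates 3, 17 and 7 had 239, 164 and 159 CPM, and the fourth highest cow, replicate 13, had 47.6 CPM. Of these 4 cows, replicates 3 and 17 were pregnant and replicates 7 and 13 were not. The lower cows of block 2 overlapped with block 1.

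The size of the block difference of ENSBTAG00000008182 depended on the measure and the tool. The edgeR fit, with the pregnancy label as covariate, gave a log2 fold of 3.82 ± 0.58 (SE), block 2 over block 1, which is 14.1-fold. DESeq2 gave a similar log2 fold of 3.85 ± 0.49. The ratio of the block means was 13.5 and that of the block medians 3.87. Limma voom gave a log2 fold of 2.14 ± 0.54, or 4.39-fold, with sample weights, and 2.31 ± 0.61, or 4.95-fold, without them, where the gene was no longer called (adjusted p = 0.0647). The mean level of block 2 was 34.9 ± 64.3 CPM, against 2.59 ± 1.83 CPM for block 1 (SD, n = 22 and 21).

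The other 9 genes showed smaller and more even shifts, with log2 folds between 0.44 and 0.98. ENSBTAG00000022185 had a lowest, median and highest value of 33.7, 62.7 and 104 CPM in block 2, against 27.5, 41.4 and 63.6 CPM in block 1. The log2 fold was 0.69 ± 0.11, and 11 cows of block 2 stood above every cow of block 1. ENSBTAG00000000933 had 4.77, 8.40 and 17.7 CPM in block 2, against 2.38, 4.07 and 11.7 CPM in block 1. Its log2 fold of 0.98 ± 0.18 was the second largest of the 10, and all 22 cows of block 2 lay above the block 1 median. ENSBTAG00000014603 had the least overlap: its values were 6.50, 9.52 and 15.6 CPM in block 2, against 1.94, 6.69 and 8.64 CPM in block 1. For this gene 15 of 22 cows of block 2 stood above the whole of block 1, and 0 cows of block 1 reached the block 2 median (log2 fold 0.66 ± 0.13). ENSBTAG00000015917 was the opposite case: block 1 replicate 8, at 15.7 CPM, was above every cow of block 2, although the medians were 11.3 CPM in block 2 and 8.03 CPM in block 1. Its log2 fold was 0.53 ± 0.10.

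ENSBTAG00000011689 had a lowest, median and highest value of 286, 546 and 945 CPM in block 2, against 182, 284 and 794 CPM in block 1. All 22 cows of block 2 exceeded the block 1 median, yet only 2 of them exceeded the highest cow of block 1 (log2 fold 0.74 ± 0.15). ENSBTAG00000011729 had block 2 and block 1 means of 87.7 ± 22.9 CPM and 62.3 ± 14.4 CPM, with a log2 fold of 0.51 ± 0.10. For ENSBTAG00000010138 the block 2 mean was 233 ± 86.4 CPM and the block 1 mean 146 ± 48.0 CPM, with a log2 fold of 0.69 ± 0.14. ENSBTAG00000054911 had a block 2 mean of 63.7 ± 22.4 CPM, against 40.9 ± 12.6 CPM for block 1 (means ± SD, n = 22 and 21), with a log2 fold of 0.67 ± 0.13. ENSBTAG00000054934 had a lowest, median and highest value of 58.5, 73.6 and 115 CPM in block 2, against 36.3, 57.6 and 82.3 CPM in block 1, and the smallest log2 fold of the 10, 0.44 ± 0.08. None of the 10 genes separated the blocks fully.

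**Figure D1:**
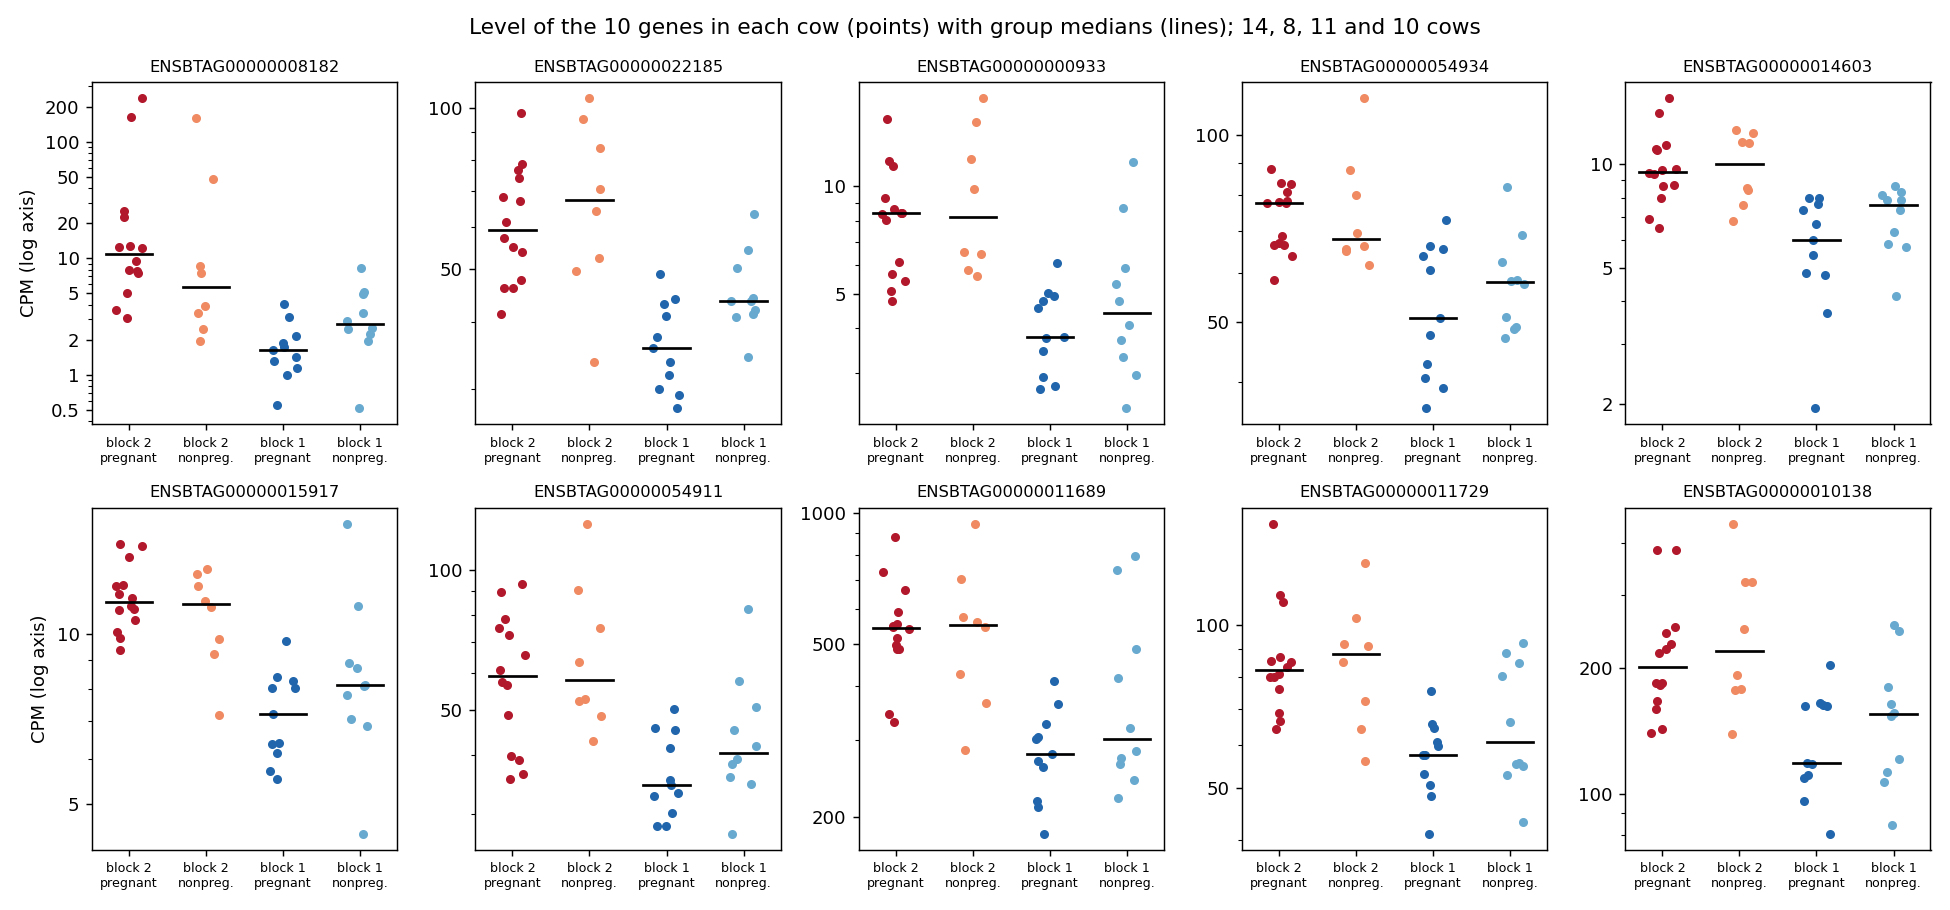
Level of each of the 10 genes in CPM on a log axis, with 1 point per cow and a line at the group median, for block 2 pregnant (14 cows), block 2 nonpregnant (8), block 1 pregnant (11) and block 1 nonpregnant (10). ENSBTAG00000008182 runs up to 239 CPM in a few block 2 cows, while the other genes shift more evenly and overlap between blocks.

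The boundary of the group is arbitrary. The last gene inside it, ENSBTAG00000010138, had p = 1.80e-05 in the block contrast, and the first gene outside, ENSBTAG00000008079, had p = 1.89e-05 with a log2 fold of 0.54 ± 0.11, and both had the same adjusted p of 0.0205 (edgeR quasi-likelihood test, Benjamini-Hochberg). Genes called higher in block 2 made up 0.349% of those tested, and all 10 members are among them because that is how they were chosen.

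The genes were also described cow by cow, and the split between blocks in these counts was fixed by the choice of the genes. Counting for each cow how many of the 10 genes lay above their median over all 43 cows gave 3 to 10 genes in block 2, with a median of 8.5, against 0 to 9 genes in block 1, with a median of 1. At least 8 genes were above their median in 16 of 22 cows of block 2, against 3 of 21 cows of block 1. At most 2 genes were above it in 0 cows of block 2, against 17 cows of block 1. The 3 cows of block 1 with a pattern like that of block 2 were replicates 8, 10 and 11, and all 3 were nonpregnant. In block 2 the pattern was carried furthest by replicates 7 and 17, each of which was among the 5 highest of the 43 cows for 9 of the 10 genes. Replicate 7 was nonpregnant with a P4 of 0.33, near the low end of the 0.27 to 1.88 seen over all cows, and replicate 17 was pregnant with a P4 of 0.91 (the labels give no unit for P4).

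**Figure D2:**
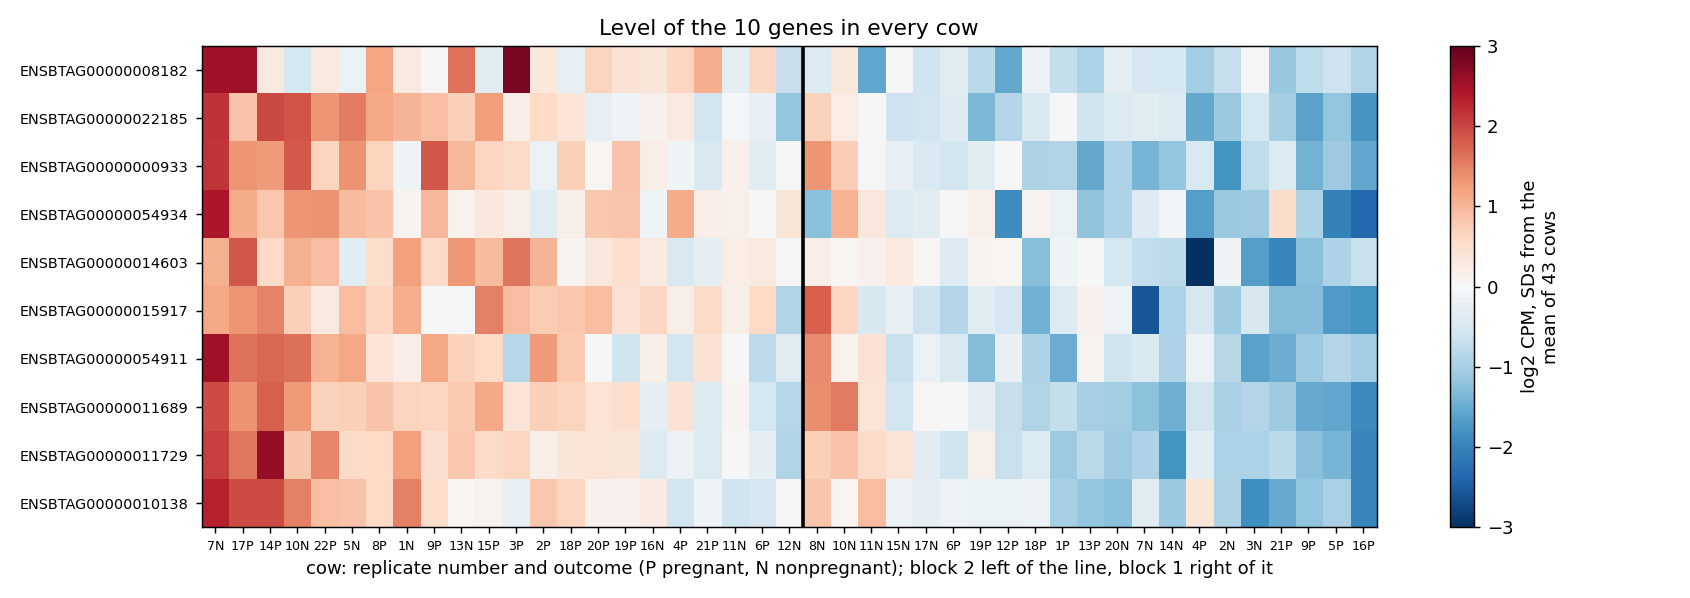
Level of the 10 genes (rows) in each of the 43 cows (columns) as log2 CPM in SDs from the mean of all cows, with block 2 left of the line, block 1 right of it, and cows sorted within a block by their mean over the 10 genes. Block 2 replicates 7 and 17 are high in nearly all rows, and block 1 replicates 8, 10 and 11 resemble block 2.

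The block difference was described within each outcome. Among pregnant cows only (14 in block 2, 11 in block 1), all 10 genes were called by the fit that compared the blocks, with a median log2 fold of 0.74, where 1.43% of tested genes were called higher. Among nonpregnant cows only (8 and 10), 0 of the 10 genes were called and 0 genes of all tested were, although all 10 folds were positive with a median log2 of 0.55 (lowest adjusted p = 1.00, edgeR). At an unadjusted p under 0.05 there were 7 of the 10 genes, where 1.61% of all genes were below it, and nothing is read from this since these cows also entered the selection. For ENSBTAG00000015917 the log2 fold was 0.68 ± 0.11 in pregnant cows and 0.32 ± 0.20 in nonpregnant cows. For ENSBTAG00000011689 it was 0.96 ± 0.15 in pregnant cows and 0.45 ± 0.28 in nonpregnant cows. For ENSBTAG00000010138 the pair was nearly equal, at 0.70 ± 0.17 and 0.68 ± 0.24.

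Whether the block difference was unequal between outcomes was tested with an interaction term. The term was positive for all 10 genes (48.7% of all tested genes had a positive one), the direction of a larger block 2 excess in pregnant cows. With limma voom it was negative for ENSBTAG00000000933, ENSBTAG00000054934 and ENSBTAG00000010138. The genes were chosen on these cows and many were correlated with one another, so nothing is read from their common sign in the edgeR fit. No gene passed: 0 of the 10 were called, where 0% of all genes were, and 0 of the 10 had an unadjusted p under 0.05, where 3.33% of all genes did. The largest of the 10 was 1.31 ± 1.05 on the log2 scale for ENSBTAG00000008182, and ENSBTAG00000011689 had 0.51 ± 0.30, with a 95% interval between -0.09 and 1.11. The adjusted p was 0.999 for all 10 genes by edgeR's quasi-likelihood test.

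**Figure D3:**
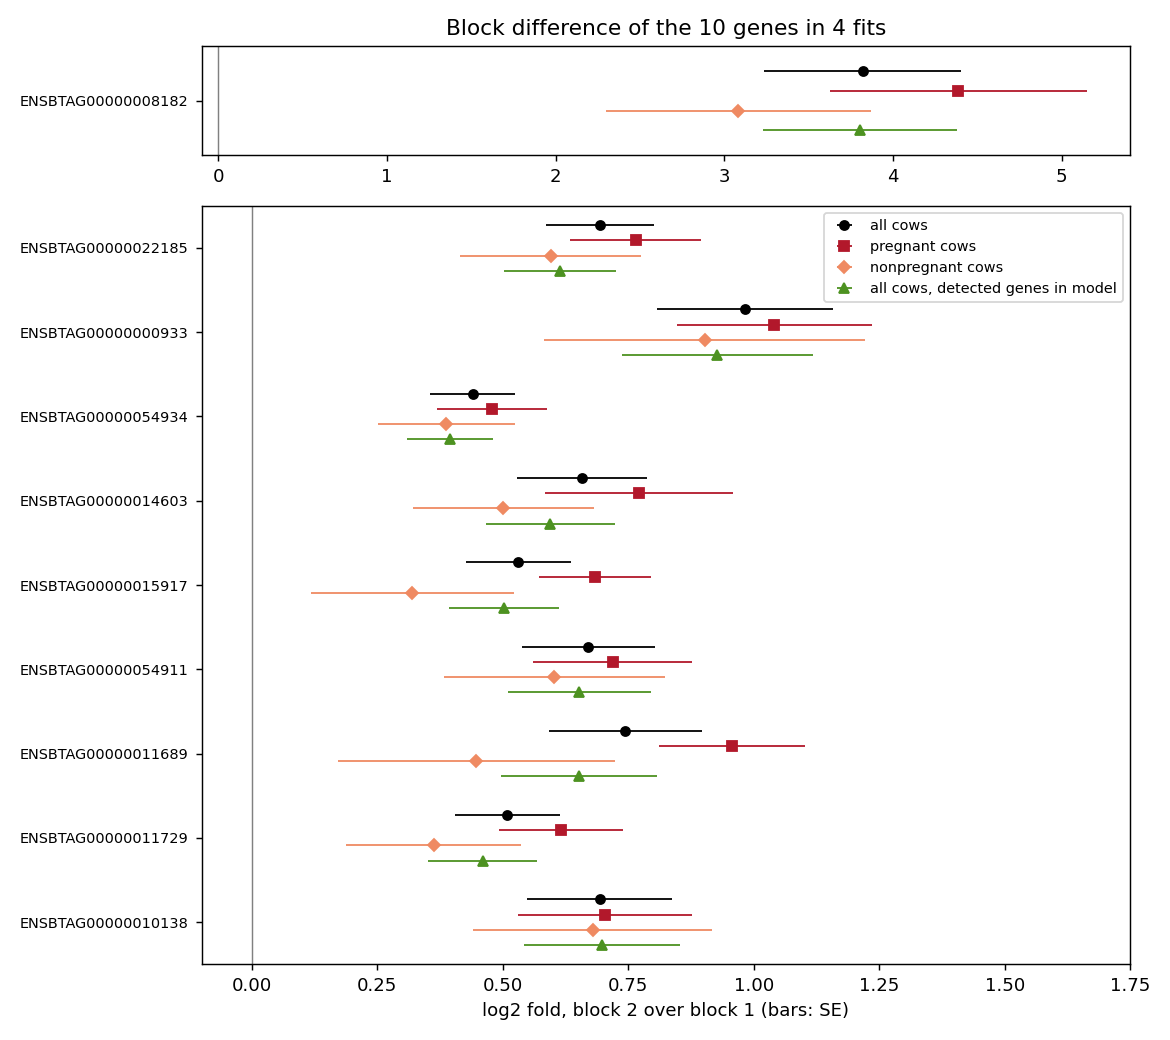
Log2 fold of block 2 over block 1 (points, with SE bars) for each gene in all 43 cows, in pregnant cows, in nonpregnant cows and in all cows with the number of detected genes in the model. The upper panel has its own axis because ENSBTAG00000008182 lies between 3.08 and 4.39, while the others lie between 0.32 and 1.04 in these fits.

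Libraries of block 2 contained more detected genes by 263.5 on average. With the number of detected genes in the model, all 10 folds remained positive and their median ratio to the first fit was 0.924, and ENSBTAG00000008182, ENSBTAG00000022185 and ENSBTAG00000000933 were still called while the other 7 were not. Genes called higher made up 0.0197% of those tested in that fit. The part of detection in the lost calls was not tested. The slope on detected genes itself, tested within block and outcome, was called for 0 of the 10 genes, against 28.1% of all genes. An unadjusted p under 0.05 was found for 2 of the 10, against 40.6% of all genes. The slopes of these 2, ENSBTAG00000014603 and ENSBTAG00000022185, were 0.31 ± 0.15 and 0.25 ± 0.12 on the log2 scale per 1000 more genes. A choice by small p in the block fit favours genes with little spread within block and outcome. Few slopes among the 10 may follow from that choice, and nothing is read from these shares.

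Leaving out the 7 libraries with over 8% of counts in 10 genes left 5 of the 10 genes called, with 0.0526% of tested genes called higher and a median ratio of the folds of 0.999. Leaving out single cows, all 10 calls held in 42 of 43 fits. Over the 43 fits, between 8 and 317 of the 15206 tested genes were called higher. These fits share nearly all cows with the selection and are a description. Without block 2 replicate 7, ENSBTAG00000011689, ENSBTAG00000011729 and ENSBTAG00000010138 were no longer called (adjusted p = 0.0543, 0.0543 and 0.0582, edgeR). Without block 2 replicates 7 and 17, a pair picked because it was high for these genes, 3 of the 10 were called and the median log2 fold was 0.59. That fit put ENSBTAG00000008182 at 3.04 ± 0.55 and called 4 genes in all, against 63 in either direction with all cows.

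Most pairs of the genes varied together among cows of the same block. Log2 CPM was freed of the block and pregnancy means, and the 45 pairs were compared by Pearson's r with a permutation within blocks (100000 resamples, two-sided, Benjamini-Hochberg over the 45 pairs). All 45 correlations were positive, with a median r of 0.47 and a range of 0.04 to 0.87, and 30 passed the threshold. With Spearman's rho 32 pairs passed. The median r of the 10 genes with all other tested genes was -0.003, and the median absolute r was 0.19. Their median r with the 43 other genes higher in block 2 was 0.49. The share of passing pairs among all tested genes was not computed, so the counts of passing pairs have no background. These points share libraries, depth and scaling factors, and the genes were all chosen on these cows. Genes that vary together also tend to be picked together by the same contrast, so positive correlations were favoured by the choice. The pair results are thus a description of the 10 genes.

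The strongest pair was ENSBTAG00000011689 and ENSBTAG00000011729, with r = 0.87 and rho = 0.83 (permutation p = 1e-05, the smallest the resamples can give, adjusted p = 3.2e-05, n = 43). It had r = 0.89 in block 2 and 0.87 in block 1, and 0.87 without the 2 libraries farthest from the median of ENSBTAG00000011689. ENSBTAG00000022185 and ENSBTAG00000011689 had r = 0.76, with 0.91 in block 2 and 0.62 in block 1. Among ENSBTAG00000022185, ENSBTAG00000000933, ENSBTAG00000054911, ENSBTAG00000011689, ENSBTAG00000011729 and ENSBTAG00000010138, 6 genes grouped after their values were seen, the 15 correlations ran between 0.62 and 0.87 over all cows, between 0.63 and 0.91 in block 2, and between 0.44 and 0.87 in block 1.

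ENSBTAG00000008182, the gene with the largest block fold, stood apart from that group. Its r with the other 9 genes ran between 0.04 and 0.31 with a median of 0.21, and 1 of its 9 pairs passed, that with ENSBTAG00000014603 (r = 0.31, permutation p = 0.0266, adjusted p = 0.0400). This pair had rho = 0.17, which did not pass, and r = 0.53 in block 2 but -0.05 in block 1. ENSBTAG00000054934 and ENSBTAG00000014603 were intermediate, with a median r of 0.37 and 0.31 to the other members. ENSBTAG00000015917 lay nearer to the group, with a median r of 0.47. Its r ran between 0.11 with ENSBTAG00000054934 and 0.71 with ENSBTAG00000011689.

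Within block 2, 30 of 45 pairs passed with a median r of 0.57, and within block 1, 17 passed with a median of 0.40. The difference between the blocks in r was not tested. Without block 2 replicates 7 and 17, 28 of 45 pairs passed and the median r was 0.42.

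**Figure D4:**
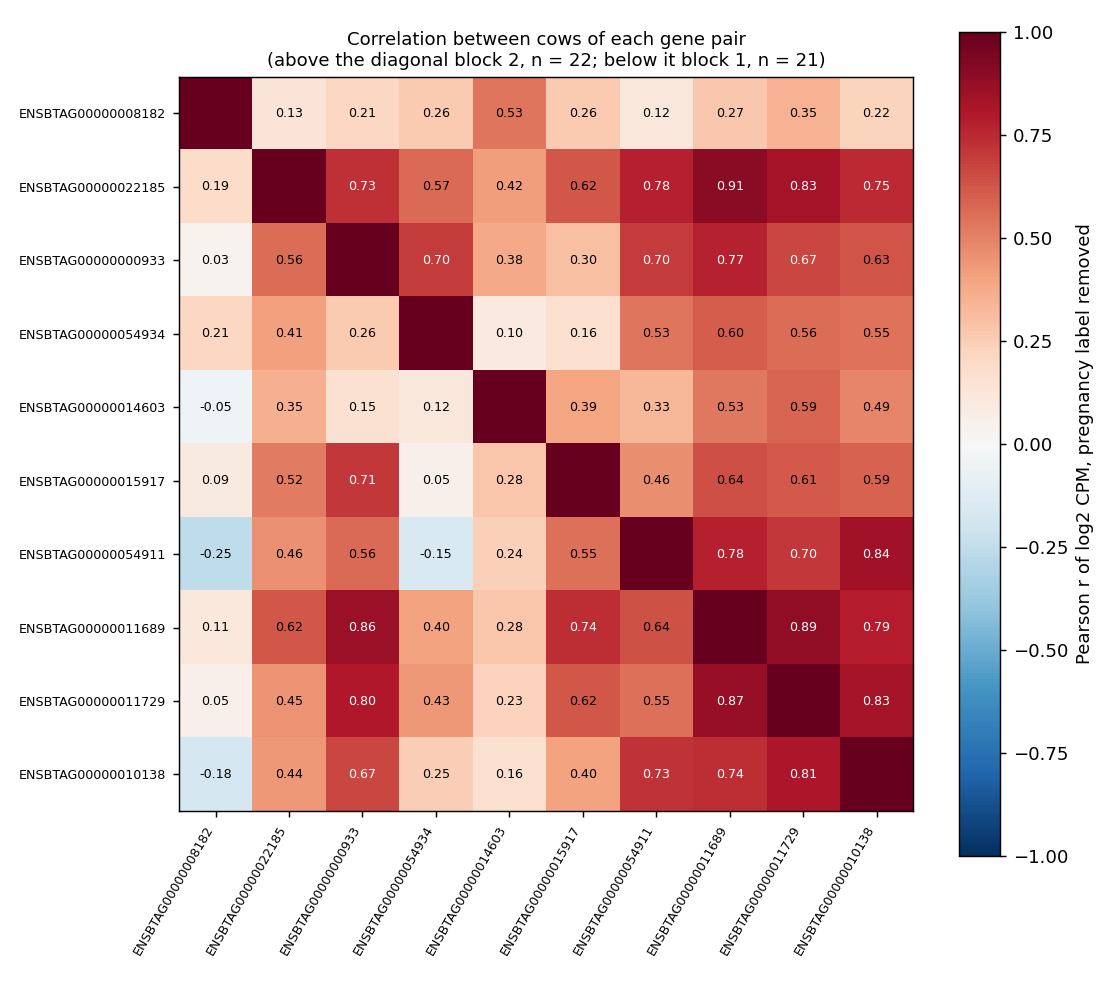
Pearson r of log2 CPM between cows, with the pregnancy label removed, for each pair of the 10 genes, in block 2 above the diagonal (22 cows) and in block 1 below it (21 cows). Pairs among the genes from ENSBTAG00000054911 to ENSBTAG00000010138 are high in both blocks, and the row and column of ENSBTAG00000008182 are pale.

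The most correlated genes of each member were also listed. Of the 30 places among the 3 most correlated genes of each member, filled by 26 different genes, 3 were held by genes called higher in block 2, 1 of them another member. Genes called higher in block 2 made up 0.349% of all tested genes. The nearest gene to ENSBTAG00000008182 was ENSBTAG00000004322 (r = 0.75, rho = 0.65, n = 43), and no other gene reached an r of 0.7 with it. The nearest gene to ENSBTAG00000022185 was ENSBTAG00000014458 (r = 0.78, rho = 0.71), which was also the nearest to ENSBTAG00000011729 (r = 0.88, rho = 0.87). An r over 0.7 was seen with 190 genes for ENSBTAG00000011689 and with 123 for ENSBTAG00000011729, but with 0 for ENSBTAG00000014603. These neighbours are given as descriptions, picked as the highest of those among the 15206 genes whose mean log2 CPM was not negative.

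The genes were also set against library depth. A slope on log2 total counts, added after the values were seen and fitted with block and outcome, was negative for all 10 genes, against 48.4% of all tested genes. It was called for 0 of the 10 and 0% of all genes, and 6 of the 10 had an unadjusted p under 0.05, where 6.33% of all genes did. The 6 are the genes grouped above, and since they were closely correlated, their slopes are not separate observations. The lowest p belonged to ENSBTAG00000000933, with a log2 slope of -1.10 ± 0.33 per doubling of the total (p = 0.00170, adjusted p = 0.573, edgeR). With log2 total counts in the model, the block folds of all 10 genes were called and their median ratio to the first fit was 1.04. In that fit 164 of the 15206 tested genes were called higher. It repeats the selecting contrast on the same cows, so these calls are a description. The part of depth in the correlations among the genes was not tested.

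The relation to progesterone was tested with block in the model. Pregnancy outcome was left out of this model and of the P4 fits by block below, so the slopes can include differences between outcomes. No member passed: 0 of the 10 were called, where 0.513% of all genes were (78 genes, or 14 with pregnancy added to the model). The slope was negative for 9 of 10 genes, against 53.9% of all genes, with a median log2 change of -0.13 per doubling of P4, against -0.01 over all genes. In this design the estimates of the block difference and the P4 slope have r = -0.03. Many of the genes were also correlated with one another, so nothing is read from their common sign. The lowest p was that of ENSBTAG00000000933, with a slope of -0.29 ± 0.11 (95% interval -0.51 to -0.07, p = 0.0102, adjusted p = 0.169, edgeR). It was the only one of the 10 with an unadjusted p under 0.05, where 16.4% of all genes had one. The limit from the choice by small p, given for detected genes, holds for this share too. For ENSBTAG00000011689 the interval ran between -0.34 and 0.06, and for ENSBTAG00000054934, the one gene with a positive slope, it ran between -0.07 and 0.16.

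The slopes were also fitted in each block alone. In the 22 cows of block 2 all 10 slopes were negative, with a median of -0.34, while in the 21 cows of block 1 the median was -0.04 and 8 of 10 were negative. In block 2, ENSBTAG00000000933 had a slope of -0.49 ± 0.15, ENSBTAG00000010138 of -0.37 ± 0.14, ENSBTAG00000054911 of -0.36 ± 0.14 and ENSBTAG00000022185 of -0.35 ± 0.12. The same genes in block 1 had slopes of -0.17 ± 0.15, 0.02 ± 0.11, -0.05 ± 0.10 and -0.02 ± 0.08. None was called in either block (lowest adjusted p = 0.0894 in block 2 and 0.866 in block 1, edgeR). At an unadjusted p under 0.05 there were 6 of 10 genes in block 2, where 22.4% of all genes were below it, and 0 of 10 in block 1, where 6.08% were. Without block 2 replicate 7, 9 of 10 block 2 slopes were negative and 3 of 10 had an unadjusted p under 0.05 (edgeR). In that fit 3627 of the 15206 tested genes were below it.

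The difference of the slopes, block 2 minus block 1, was tested as an interaction of block with P4. It was negative for 9 of 10 genes, against 51.8% of all genes, with a median of -0.30. It was called for 0 of the 10 genes and for 0% of all genes, and 4 of the 10 had an unadjusted p under 0.05, where 8.48% of all genes did. These 4 were ENSBTAG00000022185 (-0.33 ± 0.14), ENSBTAG00000054934 (-0.26 ± 0.11), ENSBTAG00000011729 (-0.29 ± 0.13) and ENSBTAG00000010138 (-0.39 ± 0.19), with adjusted p of 0.541 or above. Since 6 of the genes were closely correlated, their slopes are not separate observations. Without block 2 replicate 7, 0 of the 10 interactions had an unadjusted p under 0.05, where 8.63% of all genes did, their median was -0.22, and the median slope within block 2 was -0.25.

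**Figure D5:**
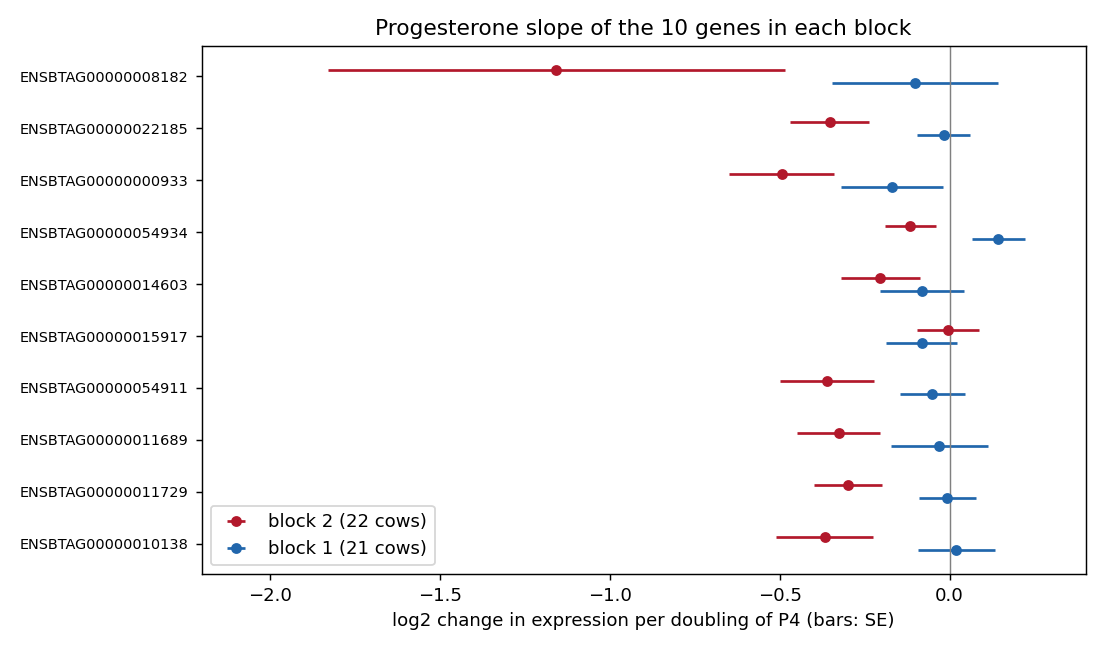
Log2 change in expression per doubling of P4 (points, with SE bars) of each gene in block 2 (22 cows) and in block 1 (21 cows), fitted separately. The block 2 slopes are all negative with a median of -0.34 and those of block 1 lie around 0, and the difference did not pass the adjusted threshold for any gene. Without block 2 replicate 7, a fit not drawn, 9 of 10 block 2 slopes were negative with a median of -0.25.

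Pregnancy outcome was compared with block in the model. In this design the block and outcome estimates of a gene are negatively correlated (r = -0.11), so genes chosen for a high block estimate lean toward a negative outcome estimate, and nothing is read from their common sign. No member passed, as no gene of the series did (0 of 10, and 0% of all genes called). The log2 difference, pregnant over nonpregnant, was negative for all 10 genes, against 48.1% of all genes, with a median of -0.22. For ENSBTAG00000022185 the medians of block 2 were 59.3 CPM among pregnant cows and 67.4 CPM among nonpregnant cows, and those of block 1 were 35.7 CPM among pregnant cows and 43.7 CPM among nonpregnant cows. Its log2 difference was -0.24 ± 0.11 (adjusted p = 1.00, edgeR), and it was the only one of the 10 with an unadjusted p under 0.05, where 2.99% of all genes had one. ENSBTAG00000000933 had -0.31 ± 0.18 and ENSBTAG00000011689 had -0.26 ± 0.15, with 95% intervals between -0.66 and 0.04 and between -0.57 and 0.05.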

How the data were processed

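Each of 43 cows gave 1 library, and the authors deposited raw read counts for 27570 Ensembl bovine identifiers per library, per the file headers. Tools listed in the submitters' processing notes are HISAT2, HTSeq, Trim Galore 0.4.4 and FastQC 0.11.7, with build ARS-UCD1.2. How strand and shared reads were handled is not given in the sources used here, so reads of overlapping or near-identical genes may be split. RNA integrity numbers were 5.6 to 8.7 (Bioanalyzer) and 6.9 to 9.4 (Qubit), per the labels' protocols, and not given per cow.

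The 10 members, the lists and the tests were chosen with earlier results of these data known. After filterByExpr (minimum count 10, smallest group 18), 15206 genes were fitted with edgeR 4.0.16 (R 4.3.3): robust quasi-likelihood fits, TMM factors, Benjamini-Hochberg over all genes, threshold 0.05. Log2 CPM used a prior count of 2. P4 entered on the log2 scale. Each cow is 1 replicate, numbered only to name it. Alternatives included DESeq2 1.42.0 and limma 3.58.1 voom with sample weights. The scripts were tested on simulated data.

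The rule for named genes asked for all 10 members, the 3 nearest genes of each, the 3 genes next in the ranking and called genes of fixed lists. As 0 identifiers matched a symbol, gene lists and markers were not used here, and of the nearest and next genes only 3 identifiers are printed. The library-total slope, limma voom without sample weights, the counts of all calls without each library and the fits without block 2 replicates 7 and 17 were added after the values were seen.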

Additional observations from a re-analysis of the deposited data

How the results depend on the processing

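Over all genes, the 63 block calls became 30 when pregnancy was not modelled, 225 (DESeq2), 834 (limma voom with sample weights, against 68 without weights), 6 with detected genes, 179 with log2 total counts, 12 without the 7 libraries, 248 in pregnant cows, 0 in nonpregnant cows and 4 without block 2 replicates 7 and 17. Leaving out single libraries gave 11 to 354 block calls, in 19 of 43 fits more than 1.5 times from 63: fewer without block 2 replicates 7, 8, 10, 14, 17 and 18 or block 1 replicates 2, 3, 5, 9, 12, 16 and 21, and more without block 2 replicates 6, 11, 12 and 16 or block 1 replicates 8 and 10. The 78 P4 calls became 276 with DESeq2, 0 with voom, 181 with no low-count filter, 14 with pregnancy added, 26 on linear P4, 164 without block 2 replicate 7, and 0 in block 1 or block 2 alone, with or without that cow. Outcome calls went to 5 with no filter, and block by P4 calls to 4 (DESeq2), 24 (voom) and 41 (no filter). The 4277 detected-genes calls became 0 in block 2 alone, library-total calls became 12 with DESeq2, and the 30 correlated pairs became 17 in block 1. The cause was not tested. Changes of sign among members, none called, are log2 values. For P4: ENSBTAG00000054934 -0.12 in block 2 and -0.0191 there without replicate 7; ENSBTAG00000015917 0.0566 with voom and 0.0278 in block 2 without replicate 7; ENSBTAG00000010138 0.0200 in block 1. For outcome in block 2: ENSBTAG00000008182 0.38 (0.15 with P4 added), ENSBTAG00000014603 0.00968, ENSBTAG00000015917 0.11 (0.0294 with voom), ENSBTAG00000011689 0.00101, ENSBTAG00000011729 0.0257. With voom, block by outcome was -0.0935 for ENSBTAG00000000933, -0.0143 for ENSBTAG00000054934 and -0.0505 for ENSBTAG00000010138, and block by P4 -0.0680 for ENSBTAG00000015917. Slopes on detected genes were 0.64, -0.00720 and -0.0831 in block 1 for ENSBTAG00000008182, ENSBTAG00000000933 and ENSBTAG00000054911 (-0.0483 without the 7 libraries), and -0.0630, -0.0440 and 0.30 in block 2 for ENSBTAG00000014603, ENSBTAG00000015917 and ENSBTAG00000010138 (0.0407 with voom). With voom the detected-genes slope of ENSBTAG00000014603 passed (0.40, adjusted p = 0.0188). No paired analysis was possible because a cow belongs to 1 block and 1 outcome, and replicate numbers are names without pairing.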
